A study of Mus musculus with 12 samples.

Results

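Stmn2, Gap43, Map2, L1cam, Nptx1, Rab3b, Kctd12, Ptn, Insyn2a and Lgi2 are genes with known roles in neurons that were selected on their high measured levels in mouse fibroblasts given HOXB13, at day 1 or at day 21. They are 10 of the 55573 genes in the deposited table, where all 10 names were found. The fibroblasts were embryonic and came from β-actin-TVA/p53-/- mice. By that genotype the mice lack p53 and carry, under the β-actin promoter, the avian receptor TVA through which RCAS retroviruses enter. The vector groups had been given RCAS-GFP, and the HOXB13 groups RCAS-HOXB13, which encodes a homeobox transcription factor. On day 1 the cells were confluent on gelatin in DMEM with serum, and by day 21 they had been kept in OsteoMAX-XF, a commercial osteogenic medium. Each of the 4 groups (vector day 1, HOXB13 day 1, vector day 21, HOXB13 day 21) had 3 libraries, from wells plated in triplicate with 1 plate for each day. Nothing in the labels ties wells to separate animals or cultures, so each p-value here reflects the spread between wells, possibly a technical one.

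A growing axon ends in a growth cone, whose shape is set by proteins acting on microtubules and on the membrane skeleton. At the synapse, small GTPases of the Rab3 family act on vesicle release, while secreted proteins and scaffolds hold receptors in place. None of these genes is restricted to neurons, and pleiotrophin, for one, is also made by bone-forming cells. Outside the nervous system many neuronal genes are held down by the repressor REST.

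A level here is the number of reads of a gene per 1000000 reads in a library whose size the authors had scaled by TMM (RPM), and means are given ± SD (n = 3). Libraries held 11109392 to 15154317 gene reads. Hoxb13 ran from 0.150 to 0.571 RPM in vector and from 238 to 331 RPM in HOXB13 libraries, as labelled. Reads of Trp53, the p53 gene, were counted in every library, at 31.5 to 54.5 RPM, so the loss of p53 rests on the labelled genotype. Xist, the RNA of the inactive X chromosome, ran from 151 to 452 RPM in vector and from 0.139 to 0.519 RPM in HOXB13. The Y-linked gene Ddx3y ran from 0 to 0.363 RPM in vector and from 96.8 to 108 RPM in HOXB13. Virus and sex chromosome genes thus divided the 12 libraries in the same way, and their parts in a difference between vector and HOXB13 cannot be told apart. Of 10 fibroblast markers all passed the filter, and in every library Col1a1, a collagen chain, was at 5667 RPM or more and Vim, vimentin, at 1009 RPM or more. Others were lower, with Lum, lumican, at 2.35 ± 0.271 RPM in vector at day 1 and Thy1 at 24.0 ± 0.587 RPM in HOXB13 at day 21. At day 1, 4 of the 10 markers were called lower in HOXB13 (Thy1 -2.37 ± 0.04, Col1a1 -1.24 ± 0.04, both as log2 fold changes, Col1a2 and Fn1) and 1, Lum, higher (1 lower and 2 higher after quantile normalization, 2 lower and 1 higher without the TMM factors). Over all genes 6.06% were called lower and 7.2% higher at day 1. The part of these markers in the levels of the 10 neuronal genes was not tested.

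The 10 genes fell into an early and a late set. Stmn2, Gap43, Map2, Nptx1, Rab3b, Kctd12 and Ptn had their highest mean in HOXB13 cells at day 1, and L1cam, Insyn2a and Lgi2 in HOXB13 cells at day 21. Because high HOXB13 levels selected the genes, differences that involve the HOXB13 libraries are described as values with no test. Log2 fold changes are differences of log2(RPM + 1) ± the standard error of a limma fit over all 12 libraries, and they understate changes of genes below a few RPM. At day 1, 9 of the 10 genes were higher in HOXB13 than in vector, 8 of them at least 2-fold, and 0 were at least 2-fold lower on the scale of log2(RPM + 1). By the ratio of reads, with no pseudocount, 8 were at least 2-fold higher and 1, Lgi2, at least 2-fold lower. Among all 13516 genes tested, 7.2% were called higher at that day (limma adjusted p below 0.05 and at least 2-fold) and 6.06% lower. At day 21, 4 of the 10 genes were at least 2-fold higher in HOXB13 and 1, Ptn, at least 2-fold lower on the log2(RPM + 1) scale, beside 8.15% of all genes called higher and 8.4% lower. By the ratio of reads 4 were at least 2-fold higher and 2, Ptn and Rab3b, at least 2-fold lower. The median log2 fold change of the 10 genes was 2.72 at day 1 and 0.65 at day 21, and over all genes it was -0.03 and 0.01. Raised in HOXB13 cells therefore describes these genes at day 1, with Lgi2 as the exception, and only 6 of them at day 21, when Rab3b, Nptx1, Ptn and Gap43 had the lower mean in HOXB13. For Gap43 that direction rests on 1 vector library: its log2 fold change at day 21 was -0.24 ± 0.15, and 0.03 without replicate 3 of the vector libraries of that day.

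**Figure D1:**
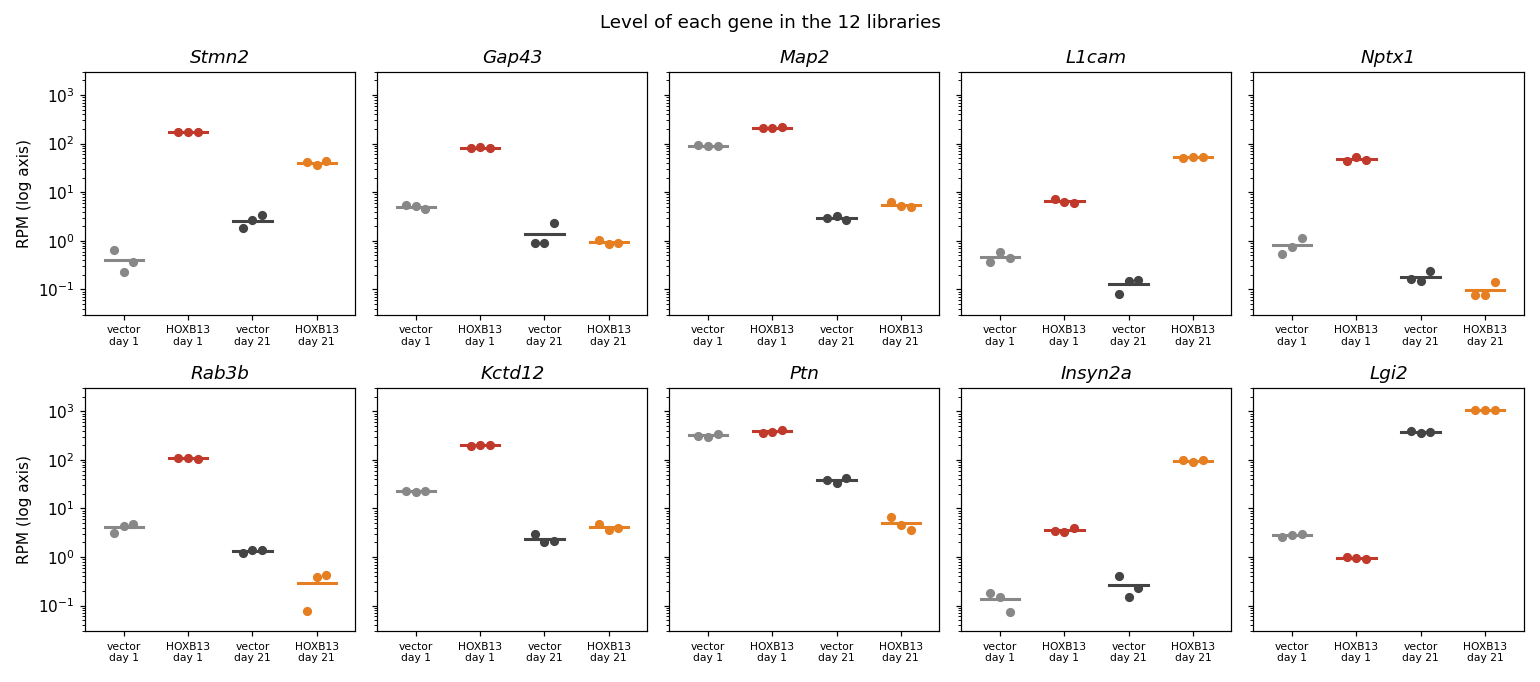
Level of each of the 10 genes in the 12 libraries, in RPM on a log axis, by group. Points are libraries and short lines are group means (n = 3). Stmn2, Gap43, Map2, Nptx1, Rab3b, Kctd12 and Ptn are highest in HOXB13 at day 1, and L1cam, Insyn2a and Lgi2 in HOXB13 at day 21.

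Of the growth cone and cytoskeleton genes, Stmn2 differed most between the viruses at day 1. It encodes stathmin-2 (SCG10), which binds tubulin and controls microtubule turnover in growth cones. Its levels at day 1 (Stmn2, ENSMUSG00000027500, chromosome 3, 8509360 to 8561606, plus strand, GRCm38) were 0.636, 0.223 and 0.374 RPM in the vector libraries and 169.7, 170.2 and 172 RPM in the HOXB13 libraries. Day 1 vector libraries held 15 Stmn2 reads in all and HOXB13 libraries 8344, a depth-scaled ratio of 431 with an exact 95% counting interval of 261 to 769.6. By day 21 the levels were 1.79, 2.7 and 3.35 RPM in vector and 41.6, 35.7 and 43.6 RPM in HOXB13. Vector and HOXB13 libraries stayed apart on both days, with log2 fold changes of 6.94 ± 0.13 and then 3.53 ± 0.13. Every vector library was higher at day 21 than any at day 1, and every HOXB13 library was lower.

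Gap43 encodes growth-associated protein 43, a membrane protein of growth cones that marks axon growth and regeneration. On day 1 Gap43 (ENSMUSG00000047261, chromosome 16, 42248442 to 42340651, minus strand) measured 5.45, 5.12 and 4.49 RPM in vector and 80.6, 86.8 and 82.2 RPM in HOXB13, a log2 fold change of 3.81 ± 0.15. On day 21 it measured 0.897, 0.900 and 2.34 RPM in vector and 1.06, 0.857 and 0.905 RPM in HOXB13. The groups, apart on day 1, overlapped on day 21. There 1 vector library lay above all the others, and the ratio of HOXB13 to vector reads was 0.683 (95% counting interval 0.438 to 1.06).

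Map2 encodes microtubule-associated protein 2, which stabilizes microtubules in dendrites, and was already expressed in vector cells. On day 1 Map2 (ENSMUSG00000015222, chromosome 1, 66175273 to 66442583, plus strand) measured 94.7, 87.6 and 90.2 RPM in vector and 209, 214 and 215 RPM in HOXB13, a log2 fold change of 1.22 ± 0.07. By day 21 Map2 was at 3.02, 3.30 and 2.73 RPM in vector and 6.37, 5.14 and 4.94 RPM in HOXB13, a log2 fold change of 0.69 ± 0.07. HOXB13 libraries were the higher ones on both days, while the level was far lower on day 21 in both cultures. Vector cells had 30.0 times as much Map2 at day 1 as at day 21 and HOXB13 cells 38.9 times as much (95% counting intervals 24.9 to 36.4 and 34.0 to 44.6).

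The axonal adhesion gene L1cam went the other way with time in HOXB13 cells. It encodes L1, an immunoglobulin-family protein that guides and bundles axons. On day 1 L1cam (ENSMUSG00000031391, chromosome X, 73853778 to 73896105, minus strand) measured 0.363, 0.594 and 0.449 RPM in vector and 7.33, 6.16 and 6.02 RPM in HOXB13. On day 21 it measured 0.0815, 0.150 and 0.156 RPM in vector, 5 reads in all, and 51.7, 53.2 and 53.6 RPM in HOXB13. The ratio of HOXB13 to vector was 13.7 on day 1 (95% counting interval 8.54 to 23.4) and 406 on day 21 (174 to 1252). L1cam is the X-linked gene of the set, and the libraries in which it was lowest were those with Xist. Stmn2 and Insyn2a, which are not X-linked, were lowest in the same libraries. The part of the sex chromosomes in these levels was not tested.

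Rab3b encodes a Rab3 GTPase of secretory vesicles. On day 1 Rab3b (ENSMUSG00000003411, chromosome 4, 108879063 to 108943324, plus strand) measured 3.09, 4.45 and 4.72 RPM in vector and 107, 112 and 106 RPM in HOXB13, a log2 fold change of 4.44 ± 0.13. At day 21 the levels of Rab3b were 1.22, 1.42 and 1.40 RPM in vector and 0.0759, 0.390 and 0.418 RPM in HOXB13, a log2 fold change of -0.87 ± 0.13. The order of the cultures turned between the days with no overlap on either: HOXB13 over vector was 26.0 (95% counting interval 22.2 to 30.7) and then 0.220 (0.107 to 0.417).

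Of the secreted proteins, Nptx1 and Ptn were early and Lgi2 late. Nptx1 encodes neuronal pentraxin 1, which gathers AMPA-type glutamate receptors at excitatory synapses. On day 1 Nptx1 (ENSMUSG00000025582, chromosome 11, 119538719 to 119547753, minus strand) measured 0.545, 0.742 and 1.12 RPM in vector and 44.6, 52.8 and 45.0 RPM in HOXB13, a ratio of 57.7 (95% counting interval 40.6 to 85.2). On day 21 it was close to absent in both cultures, at 0.163, 0.150 and 0.234 RPM in vector (7 reads in all) and 0.0759, 0.0779 and 0.139 RPM in HOXB13 (4 reads in all). With a ratio of 0.544 and a counting interval of 0.117 to 2.14, a difference between the cultures on day 21 was not detectable at this depth.

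Ptn encodes pleiotrophin, a heparin-binding growth factor that promotes neurite outgrowth. Both cultures expressed it strongly on day 1. Ptn (ENSMUSG00000029838, chromosome 6, 36714929 to 36810220, minus strand) then measured 313, 303 and 339.9 RPM in vector and 364, 381 and 412 RPM in HOXB13, a log2 fold change of 0.27 ± 0.11. At day 21 Ptn was at 37.9, 33.9 and 43.0 RPM in vector and 6.68, 4.68 and 3.62 RPM in HOXB13, a log2 fold change of -2.74 ± 0.11. On day 21 the HOXB13 libraries all lay below the vector libraries.

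Lgi2 encodes a secreted leucine-rich glioma-inactivated protein, of a family that binds ADAM22-type receptors at synapses. On day 1 Lgi2 (ENSMUSG00000039252, chromosome 5, 52533517 to 52566462, minus strand) measured 2.64, 2.89 and 3.00 RPM in vector and 0.989, 0.973 and 0.922 RPM in HOXB13, a log2 fold change of -0.97 ± 0.05 and a ratio of vector to HOXB13 reads of 2.97 (95% counting interval 2.09 to 4.28). By day 21 Lgi2 had reached 402, 362 and 378 RPM in vector and 1054, 1048 and 1043 RPM in HOXB13, a log2 fold change of 1.46 ± 0.05. It was thus lower in HOXB13 before the osteogenic medium and higher after it, with no overlap on either day. From day 1 to day 21 the level went up 133-fold in vector (95% counting interval 110.3 to 163) and 1090.4-fold in HOXB13 (819.8 to 1484), so a large rise was present in both.

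Insyn2a and Kctd12 act at inhibitory synapses. Insyn2a encodes inhibitory synaptic factor 2A, a scaffold of the inhibitory postsynapse. On day 1 Insyn2a (ENSMUSG00000073805, chromosome 7, 134881926 to 134938430, minus strand, named Fam196a in the annotation) measured 0.182, 0.148 and 0.0749 RPM in vector, 5 reads in all, and 3.49, 3.24 and 3.93 RPM in HOXB13. On day 21 it measured 0.408, 0.150 and 0.234 RPM in vector, 10 reads in all, and 102, 91.0 and 98.4 RPM in HOXB13, a ratio of 373 (95% counting interval 203 to 779). It stayed close to absent in vector cells on both days. Insyn2a overlaps Dock1 on the opposite strand, with 0 exon bases shared, and Dock1 was at 109.7 ± 4.46 RPM on day 1 and 56.3 ± 0.415 RPM on day 21 in HOXB13, the opposite direction.

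Kctd12 encodes an auxiliary subunit of GABAB receptors that speeds their desensitization. On day 1 Kctd12 (ENSMUSG00000098557, chromosome 14, 102976581 to 102982637, minus strand) measured 22.9, 22.0 and 22.4 RPM in vector and 194, 201 and 203 RPM in HOXB13, a log2 fold change of 3.10 ± 0.09. By day 21 the levels were 2.94, 2.02 and 2.10 RPM in vector and 4.78, 3.66 and 3.97 RPM in HOXB13, a log2 fold change of 0.62 ± 0.09. HOXB13 libraries were above vector libraries on both days. Of its 6057 exonic bases, 3805 are shared with Gm26778, a noncoding gene on the other strand with a mean of 0.264 RPM, and no source used here says whether reads were counted by strand.

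**Figure D2:**
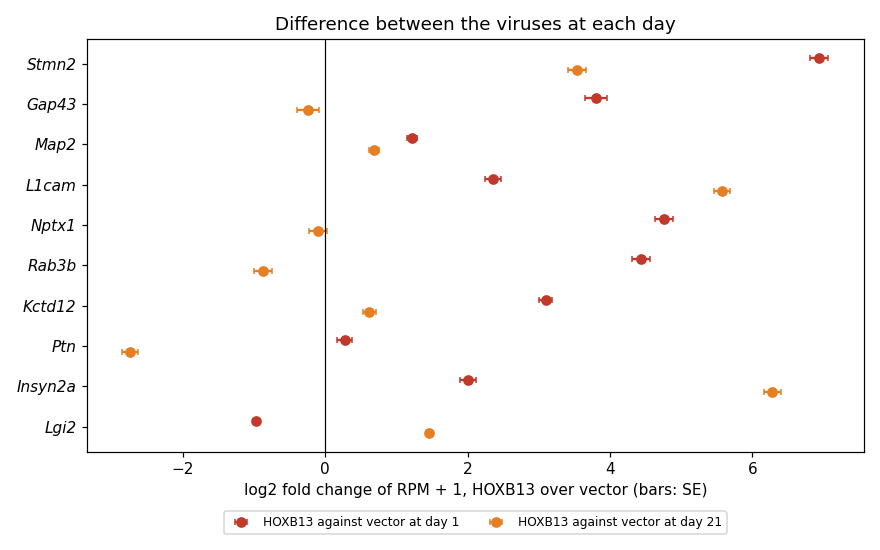
Log2 fold change of each gene between HOXB13 and vector at day 1 and at day 21, on the scale of log2(RPM + 1). Bars are standard errors from limma. Rab3b, Nptx1, Ptn, Gap43 and Lgi2 lie on opposite sides of 0 on the 2 days.

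The change with time in vector cells was not used to select the genes and could be tested. Of the 10 genes, 5 fell and 2 rose from day 1 to day 21 in vector cells (limma adjusted p below 0.05 and at least 2-fold), beside 12% of all genes called lower and 16.1% higher. The median of the 10 was -0.85. Map2 fell with a log2 fold change of -4.52 ± 0.07 (limma adjusted p = 2.56e-24), Ptn with -3.03 ± 0.11 (adjusted p = 8.76e-18) and Kctd12 with -2.82 ± 0.09 (adjusted p = 2.31e-18). Gap43 fell with -1.39 ± 0.15 (limma adjusted p = 1.38e-08) and Rab3b with -1.10 ± 0.13 (adjusted p = 3.97e-08). Lgi2 rose with 6.64 ± 0.05 (limma adjusted p = 1.37e-30) and Stmn2 with 1.34 ± 0.13 (adjusted p = 8.19e-10). In each of these 7 genes the vector libraries of day 21 lay apart from those of day 1. With a pseudocount of 4 in place of 1, Gap43 (-0.76), Rab3b (-0.59) and Stmn2 (0.58) kept their direction at less than 2-fold.

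Nptx1, L1cam and Insyn2a were low in vector cells on both days. The log2 fold change of Nptx1 was -0.60 ± 0.13 (limma adjusted p = 0.000148) and that of L1cam -0.38 ± 0.11 (adjusted p = 0.00328), both under 2-fold on this scale. EdgeR on the recovered reads gave -2.12 and -1.80 and called both. Insyn2a did not pass the test (log2 fold change 0.15 ± 0.11, limma adjusted p = 0.221). Over the other settings the adjusted p ran from 1.55e-06 to 0.010 for Nptx1, from 2.57e-05 to 0.108 for L1cam and from 0.0535 to 0.672 for Insyn2a. Counted without a fold limit, 41.9% of all genes fell and 41.7% rose in vector cells. All 10 genes passed the filter of 1 RPM in 3 libraries, but Nptx1, L1cam and Insyn2a only through the HOXB13 libraries.

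In HOXB13 cells all 7 early genes went down by at least 2-fold from day 1 to day 21 and all 3 late genes went up. These are values with no test, beside 10.5% of all genes called lower and 13.2% higher. The directions follow from how the early and late sets were defined, by the HOXB13 day with the higher mean, so only the sizes are informative. The log2 fold change was -6.41 ± 0.13 for Rab3b, -6.04 ± 0.11 for Ptn, -5.46 ± 0.13 for Nptx1, -5.44 ± 0.15 for Gap43 and -5.29 ± 0.09 for Kctd12. It was -5.05 ± 0.07 for Map2 and -2.06 ± 0.13 for Stmn2. It was 9.06 ± 0.05 for Lgi2, 4.43 ± 0.11 for Insyn2a and 2.85 ± 0.11 for L1cam. Stmn2 and L1cam thus moved in opposite directions in the 2 cultures, and Map2 moved by a similar amount in both. Day, medium and plate went together in this design and cannot be told apart, and in bulk RNA fewer cells of a type and less RNA per cell cannot be told apart either.

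**Figure D3:**
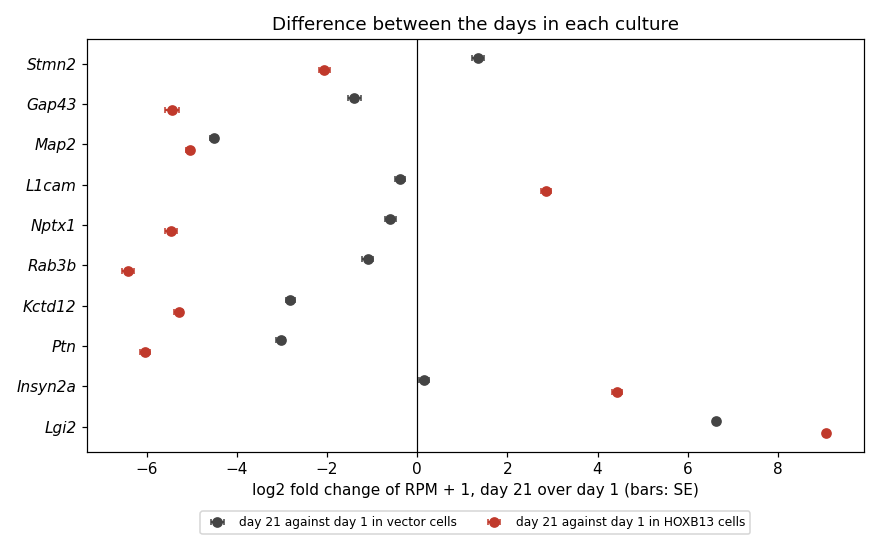
Log2 fold change of each gene between day 21 and day 1 in vector and in HOXB13 cells, on the scale of log2(RPM + 1). Bars are standard errors from limma. In HOXB13 cells 7 genes lie below 0 and 3 above, and Stmn2 and L1cam lie on opposite sides of 0 in the 2 cultures.

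Levels of different genes were compared per kilobase of exon. In HOXB13 cells at day 1, Ptn was highest at 112 ± 6.96 RPM per kilobase, followed by Gap43 at 54.6 ± 2.10, Kctd12 at 32.9 ± 0.740, Rab3b at 30.7 ± 0.877 and Stmn2 at 30.5 ± 0.242. Rab3b and Stmn2 overlapped between libraries. Lower levels per kilobase were those of Map2 at 12.9 ± 0.179, Nptx1 at 9.10 ± 0.884, L1cam at 0.885 ± 0.0979, Insyn2a at 0.551 ± 0.0542 and Lgi2 at 0.147 ± 0.00538. In HOXB13 cells at day 21, Lgi2 led at 161 ± 0.861 RPM per kilobase, ahead of Insyn2a at 15.05 ± 0.844, Stmn2 at 7.19 ± 0.736 and L1cam at 7.19 ± 0.138. Stmn2 and L1cam overlapped there, and the gene that had been last at day 1 was first. In vector cells Ptn led at day 1 with 92.8 ± 5.57 RPM per kilobase, and Lgi2 at day 21 with 58.3 ± 3.12.

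The promoters of 4 genes are shown because Rab3b and Kctd12 were both early and Insyn2a and Lgi2 both late. RefSeq promoters (GRCm38.p6) were matched by symbol for 7 of the 10 genes, Map2, L1cam, Rab3b, Kctd12, Ptn, Insyn2a and Lgi2. Each sequence below is the 250 bases before the start site, 5′ to 3′ on the gene's strand: Rab3b chr4:108878820-108879069 (plus strand), Kctd12 chr14:102982638-102982887 (minus strand), Insyn2a chr7:134938431-134938680 (minus strand) and Lgi2 chr5:52566307-52566556 (minus strand). Capitals mark matches, on either strand, to the TATA box letters TATAAA or to parts of the REST binding element, CAGCACC and GGACAGC.

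Rab3b: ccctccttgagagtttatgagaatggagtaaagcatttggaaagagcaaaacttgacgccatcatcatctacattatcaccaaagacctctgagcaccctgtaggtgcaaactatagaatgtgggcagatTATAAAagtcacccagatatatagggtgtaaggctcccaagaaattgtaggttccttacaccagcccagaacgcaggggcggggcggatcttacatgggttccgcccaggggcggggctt

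Kctd12: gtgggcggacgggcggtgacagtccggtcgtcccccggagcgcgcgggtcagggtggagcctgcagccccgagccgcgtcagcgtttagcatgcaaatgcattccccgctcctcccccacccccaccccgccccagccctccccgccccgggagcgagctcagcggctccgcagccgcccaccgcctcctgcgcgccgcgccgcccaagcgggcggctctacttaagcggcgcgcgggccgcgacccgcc

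Insyn2a: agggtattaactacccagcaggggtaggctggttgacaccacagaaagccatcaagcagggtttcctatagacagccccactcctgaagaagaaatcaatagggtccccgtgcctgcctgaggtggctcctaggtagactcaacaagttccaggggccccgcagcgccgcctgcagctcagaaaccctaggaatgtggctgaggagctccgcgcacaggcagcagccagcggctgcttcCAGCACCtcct

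Lgi2: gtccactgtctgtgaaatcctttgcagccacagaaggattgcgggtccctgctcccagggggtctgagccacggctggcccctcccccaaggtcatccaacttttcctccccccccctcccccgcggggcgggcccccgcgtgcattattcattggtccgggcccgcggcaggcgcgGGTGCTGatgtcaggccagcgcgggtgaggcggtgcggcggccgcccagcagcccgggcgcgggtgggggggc

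TATAAA is present in Rab3b and in 12.4% of the 32851 RefSeq promoters of this length. CAGCACC is present in Insyn2a, Lgi2 and Ptn and in 5.73% of all promoters, and GGACAGC in Map2 and in 5.28% of all. The HOXB13-type motifs CAATAAA (4.20% of all promoters) and TCGTAAA (0.478%) were searched on both strands, and these letters are not in the windows of the 7 genes. A match describes letters and not binding. The GC content was 77.6% in Kctd12, 81.2% in Map2 and 72.4% in Lgi2, and 48.8% in Rab3b, 52.0% in Ptn and 59.2% in Insyn2a, beside a median of 52.4% over all promoters. The 2 windows of L1cam had 69.6% and 63.2%. The promoters of the late genes were thus all above that median, and those of the early genes lay on both sides of it. Map2 and Kctd12, both early, had the highest GC content of the 7, and Rab3b and Ptn were below the median, Ptn only just.

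Other neuronal genes moved in both directions. In 7 lists written from general knowledge (growth cone, axonal adhesion, vesicle release, secreted factors with receptors, inhibitory synapse, neuronal identity, neuroendocrine granule), 70 of 113 genes passed the filter. At day 1, 14 of the 70 were higher and 13 lower in HOXB13 (20.0% and 18.6%, beside 7.2% and 6.06% of all genes), with a median log2 fold change of 0.28. Without the TMM factors, which moved the median of all genes at day 1 from -0.03 to 0.15, 19 were higher and 11 lower. At day 21, 13 were higher and 15 lower in HOXB13 (18.6% and 21.4%, beside 8.15% and 8.4% of all genes). The balance turned with the tool, since edgeR called 24 higher and 16 lower, and DESeq2 23 and 15. Over all 13516 genes edgeR called 1378 higher and 1441 lower at day 21, and DESeq2 1372 and 1435. With time 10 rose and 20 fell in vector cells (beside 16.1% and 12% of all genes), and 12 rose and 31 fell in HOXB13 cells (17.1% and 44.3%, beside 13.2% and 10.5% of all genes). The interaction of virus and day was positive for 14 and negative for 20 of the 70, beside 7.87% and 9.53% of all genes (12 and 27 without the TMM factors). With no fold limit, 37 of the 70 were called higher and 26 lower at day 1, beside 33.9% and 38.5% of all genes, and 30 and 22 at day 21, beside 37.3% and 35.1%. By the same rule 15 rose and 47 fell with time in HOXB13 cells, beside 39.5% and 40.6% of all genes, and the interaction was positive for 27 and negative for 34, beside 36.6% and 31.7%. A gene that passed the filter only through its high group had to differ, so these counts describe the lists.

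**Figure D4:**
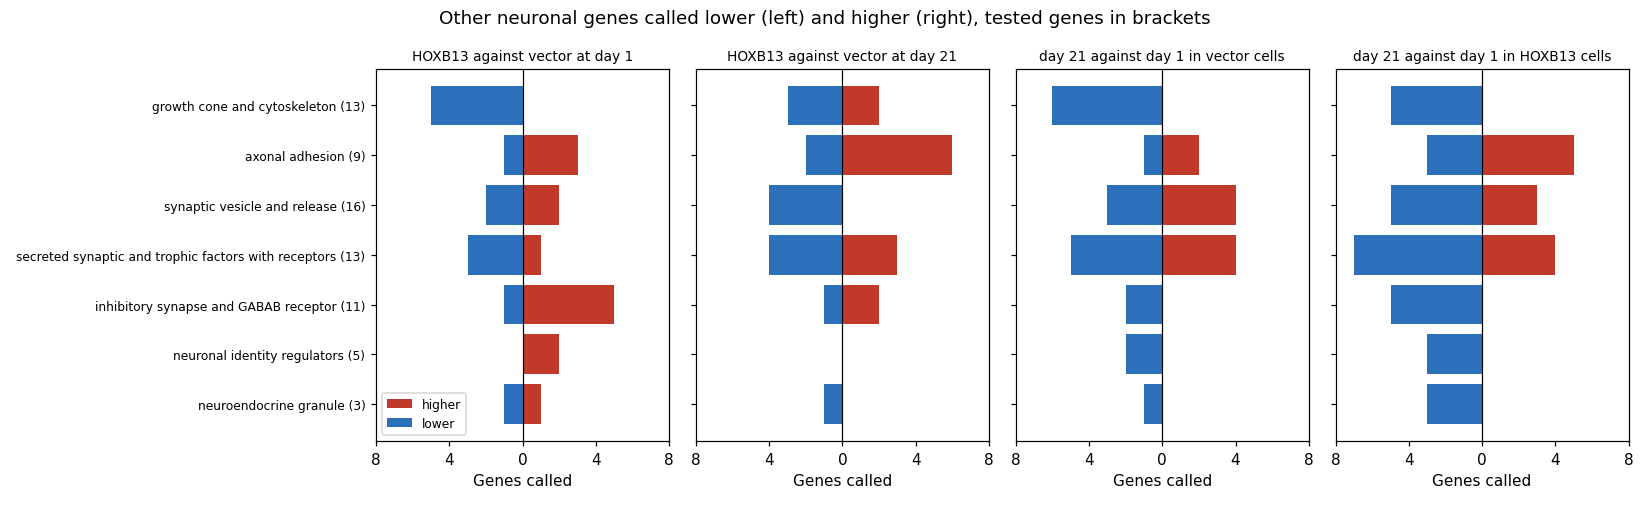
Number of other neuronal genes called in each comparison, by list (limma adjusted p below 0.05 and at least 2-fold), higher and lower. Of the growth cone genes 0 were called higher at day 1 and 5 lower. Of the adhesion genes 6 were called higher in HOXB13 at day 21 and 2 lower. Over all genes 7.2% were called higher and 6.06% lower at day 1, and 8.15% and 8.4% at day 21.

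Growth cone and cytoskeleton genes other than Stmn2, Gap43 and Map2 were mostly not higher with them at day 1. Of 13 tested, 5 fell and 0 rose in HOXB13 by limma, beside 6.06% and 7.2% of all genes. At limma adjusted p below 0.05 with no fold limit, 5 were higher and 8 lower, beside 33.9% and 38.5% of all genes. EdgeR and DESeq2 each called 2 higher and 5 lower. Over all 13516 genes edgeR called 1403 higher and 1150 lower, and DESeq2 1400 and 1127. Tubb3, the tubulin isotype used as a neuronal marker, fell from 13.1 ± 0.804 to 4.81 ± 0.574 RPM (log2 fold change -1.28 ± 0.14, limma adjusted p = 1.14e-08). Dpysl5, a collapsin-response protein of growth cones, fell from 22.1 ± 1.06 to 0.145 ± 0.0434 RPM, and Uchl1, a neuronal deubiquitinase, from 51.0 ± 2.33 to 19.3 ± 0.644 RPM. The 5 genes that were higher in HOXB13 at day 1 with no fold limit differed by less than 2-fold on the log2(RPM + 1) scale. Their log2 fold changes were 0.94 ± 0.14 for Crmp1, 0.78 ± 0.03 for Dpysl3 and 0.76 ± 0.13 for Nefm. Those of Dpysl2 and Stmn1 were 0.52 ± 0.05 and 0.38 ± 0.12. Nefm passed the filter only through the HOXB13 libraries of day 1. Dcx, doublecortin of migrating neurons, had no read in any library. Like Map2, the collapsin-response gene Dpysl3 fell with time in both cultures, from 503 ± 6.44 to 39.6 ± 1.43 RPM in vector and from 863 ± 9.35 to 96.0 ± 4.73 RPM in HOXB13.

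Some relatives and partners of L1cam were also higher in HOXB13 at day 21. Of 9 tested adhesion genes, 6 were called higher than in vector and 2 lower, beside 8.15% and 8.4% of all genes. Among the 6, Nrcam and Ncam2, another adhesion gene, passed the filter only through HOXB13 libraries, as did Cntn1. Chl1, the close homolog of L1, was at 21.8 ± 3.46 RPM in vector and 249.99 ± 0.941 RPM in HOXB13 (log2 fold change 3.47 ± 0.11, limma adjusted p = 6.97e-19). Cntn1, a contactin, which passed the filter only through the HOXB13 libraries of day 21, was at 0.499 ± 0.203 and 22.9 ± 1.80 RPM, and Ank3, an ankyrin that anchors L1-family proteins, at 23.9 ± 5.11 and 254 ± 10.2 RPM. Nrcam, of the L1 family, was early instead, at 1.22 ± 0.233 RPM in vector and 19.6 ± 0.867 RPM in HOXB13 at day 1, and at 0.573 ± 0.0954 and 2.78 ± 0.194 RPM at day 21. Nfasc, also of the L1 family, did not pass the test at day 21, at 2.83 ± 1.19 and 3.31 ± 0.529 RPM (log2 fold change 0.21 ± 0.17, limma adjusted p = 0.285). Ncam1, the neural cell adhesion molecule, was lower in HOXB13 on both days, with log2 fold changes of -1.26 ± 0.03 and -1.01 ± 0.03, and Alcam, another adhesion gene, was lower at day 21 (-1.95 ± 0.04).

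Like Rab3b, 2 release genes were high in HOXB13 cells at day 1. Syt1, the calcium sensor of synaptic vesicles, was at 1.15 ± 0.356 RPM in vector and 32.1 ± 2.38 RPM in HOXB13 at day 1 (log2 fold change 3.95 ± 0.14), and at 0.160 ± 0.144 and 0.389 ± 0.237 RPM at day 21. It passed the filter only through the HOXB13 libraries of day 1, where it was high, so no p is given. Rims2, a Rab3 effector at release sites, was at 1.44 ± 0.338 and 7.18 ± 0.207 RPM at day 1 and at 0.0250 ± 0.0433 and 0.493 ± 0.0555 RPM at day 21. Unlike Rab3b, both thus had the higher mean in HOXB13 on day 21 too. Those levels were below 1 RPM in both cultures and rest on few reads, and the Syt1 libraries of the 2 cultures overlapped there. Sv2a, a vesicle glycoprotein, and Syn1, synapsin I, fell instead, with log2 fold changes of -1.84 ± 0.15 and -1.02 ± 0.12. Of 16 tested, 2 rose and 2 fell in HOXB13 at day 1 (4 and 1 without the TMM factors). Of all genes, 7.2% were called higher and 6.06% lower at that day. At day 21, 4 were lower and 0 higher by limma, beside 8.4% and 8.15% of all genes. At limma adjusted p below 0.05 with no fold limit, 7 were higher and 6 lower, beside 37.3% and 35.1% of all genes. EdgeR and DESeq2 each called 4 higher and 4 lower. Over all 13516 genes edgeR called 1378 higher and 1441 lower at day 21, and DESeq2 1372 and 1435. Rab3d, a relative of Rab3b, rose with time in both cultures, from 7.10 ± 0.429 to 62.0 ± 2.00 RPM in vector and from 7.01 ± 0.404 to 34.3 ± 2.51 RPM in HOXB13.

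Receptors and relatives of the secreted proteins were mixed. Ptprz1, a receptor phosphatase that binds pleiotrophin, was at 109 ± 3.09 RPM in vector and 4.56 ± 0.668 RPM in HOXB13 at day 1 (log2 fold change -4.32 ± 0.12, limma adjusted p = 1.47e-19), while Ptn was high in both. Adam23, of the receptor family that binds LGI proteins, rose with time as Lgi2 did, from 18.0 ± 1.41 to 104 ± 7.63 RPM in vector and from 4.17 ± 0.0507 to 40.7 ± 1.30 RPM in HOXB13. Unlike Lgi2, it was lower in HOXB13 at day 21 (log2 fold change -1.33 ± 0.07, limma adjusted p = 1.30e-14). Adam22, of the same family, also rose with time but had the higher mean in HOXB13 at day 21, as Lgi2 did. It went from 15.5 ± 0.669 to 27.7 ± 1.20 RPM in vector and from 20.6 ± 1.42 to 56.0 ± 1.69 RPM in HOXB13. Lgi3, a relative of Lgi2, rose to 13.7 ± 0.592 RPM in vector and 12.4 ± 0.951 RPM in HOXB13. Nptxr, the pentraxin receptor, fell with time in HOXB13, from 31.7 ± 2.21 to 11.8 ± 1.58 RPM. Of 13 tested, 1 rose and 3 fell at day 1 (2 and 2 without the TMM factors), and 3 were higher and 4 lower at day 21. Over all genes 7.2% were called higher and 6.06% lower at day 1, and 8.15% and 8.4% at day 21.

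Of 11 tested inhibitory synapse genes, 5 were higher and 1 lower in HOXB13 at day 1, beside 7.2% and 6.06% of all genes. Kctd12b, a relative of Kctd12, was at 0.105 ± 0.0397 RPM in vector and 16.3 ± 1.51 RPM in HOXB13 (log2 fold change 3.96 ± 0.12), and it passed the filter only through the HOXB13 libraries, so no p is given. Gabra4, a GABAA receptor subunit, fell from 31.1 ± 1.89 to 1.78 ± 0.441 RPM. Of the GABAB receptor subunits, Gabbr1 was at 31.8 ± 1.15 and 36.1 ± 2.10 RPM, and Gabbr2 at 0 ± 0 and 0.0604 ± 0.0615 RPM. Insyn1, which like Insyn2a encodes an inhibitory synaptic factor, was at 11.6 ± 1.5 RPM in vector and 26.1 ± 1.57 RPM in HOXB13 at day 21 (log2 fold change 1.11 ± 0.07, limma adjusted p = 2.16e-12).

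Regulators that define neurons were mostly absent. Of 16 identity genes 5 passed the filter, and Neurod1 and Neurog1 were among those with no read in any library. Their summed level was 17.5 to 20.4 RPM in vector and 35.5 to 40.1 RPM in HOXB13 at day 1, and 6.30 to 7.71 RPM and 10.8 to 11.2 RPM at day 21. Elavl2, a neuronal RNA-binding protein, was at 0.0303 ± 0.0525 RPM in vector and 17.3 ± 0.596 RPM in HOXB13 at day 1 (log2 fold change 4.15 ± 0.12), and it too passed the filter only through HOXB13 libraries. Much of the day 1 sum in HOXB13 was thus Elavl2. Of the others that passed, Nova1 was at 5.60 ± 1.48 and 9.94 ± 1.77 RPM at day 1, and Pou3f2 at 0 ± 0 and 1.60 ± 0.0784 RPM. Elavl4 was at 1.97 ± 0.928 and 2.14 ± 0.525 RPM, and Celf4 went down, from 11.5 ± 0.346 to 5.59 ± 0.433 RPM. Of 12 neural crest and glial markers 2 passed the filter, and Foxd3 and Olig2 were at 0 in every library. The summed glial level was 61.6 to 65.1 RPM in vector and 11.3 to 12.7 RPM in HOXB13 at day 1, and 140.2 to 150.5 RPM and 6.75 to 8.84 RPM at day 21, the opposite direction from most of the 10 genes. In vector that sum was mostly 1 gene, Mbp, at 56.1 ± 1.39 RPM at day 1 and 143.9 ± 5.49 RPM at day 21. The part of these cell type markers in the levels of the 10 genes was not tested.

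Rest was at 101 ± 0.672 RPM in vector and 100.4 ± 2.84 RPM in HOXB13 at day 1, a log2 fold change of -0.01 with a 95% interval of -0.09 to 0.06 (limma adjusted p = 0.782). Quantile normalization put it at 0.10 (limma adjusted p = 0.0121) and leaving out the TMM factors at 0.20 (adjusted p = 2.36e-05). Both were in the other direction, so the day 1 result depended on the scaling. Leaving out the TMM factors also moved the median of all genes at day 1, from -0.03 to 0.15. At day 21 Rest measured 72.2 ± 0.233 RPM in vector and 67.9 ± 2.50 RPM in HOXB13. The log2 difference was -0.09, with a 95% interval of -0.163 to -0.015 (limma adjusted p = 0.0295). It was -0.12 after quantile normalization (adjusted p = 0.00399) and -0.16 without the TMM factors (adjusted p = 0.00027). Under each of these settings Rest was lower in HOXB13, while the median of all genes at day 21 was 0.01, and -0.05 without the TMM factors. With time its log2 fold change was -0.48 ± 0.04 in vector (limma adjusted p = 1.05e-11) and -0.56 ± 0.04 in HOXB13 (adjusted p = 7.31e-13). Of 13 genes of repressor complexes and PTB proteins, 0 were called in either direction at day 1 by limma, edgeR or DESeq2. By limma 7.2% of all genes were called higher and 6.06% lower. EdgeR called 1403 of the 13516 genes higher and 1150 lower, and DESeq2 1400 and 1127. Among the 13, 3 were higher and 7 lower at limma adjusted p below 0.05 with no fold limit. Over all genes these shares were 33.9% and 38.5%. At day 21, 1 of the 13 was called lower and 0 higher by limma, beside 8.4% and 8.15% of all genes. With time in vector cells 4 were called lower and 0 higher, beside 12% and 16.1% of all genes.

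The genes most like each of the 10 were those with the smallest root mean square difference in log2(RPM + 1) over the 12 libraries, each gene centred on its mean, given here in brackets. Slc5a7, the choline transporter of cholinergic neurons, was near Gap43 (0.31), Nptx1 (0.36) and Rab3b (0.57). Its means were 3.64 RPM in vector and 72.0 RPM in HOXB13 at day 1, and 0.802 RPM and 1.27 RPM at day 21. Dkk2, a secreted Wnt modulator, was near Gap43 (0.38) and Rab3b (0.58), and the membrane protease gene Mmp15 near Nptx1 (0.30). Nearest to Kctd12 were AW551984 (0.33) and Mecom (0.41), to Map2 C530008M17Rik (0.39) and Cd109 (0.42). Fhl1 was near Ptn (0.68). Of the late genes, L1cam was nearest to Aim2 (0.25) and Tbc1d9 (0.44), Insyn2a to Gldn (0.51) and Thbs4 (0.57), and Lgi2 to Chil1 (0.31) and Mmp13 (0.36). Stmn2 was nearest to the Y-linked genes Uty (0.90) and Kdm5d (0.92), which separate the same libraries. Among the 10, Gap43 and Rab3b (0.45), Gap43 and Nptx1 (0.45) and Nptx1 and Rab3b (0.48) were the closest pairs, and L1cam and Insyn2a (0.61) the closest of the late set.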

How the data were processed

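Strand-specific messenger RNA libraries were made with a NuGEN kit, per the labels' protocols. The deposited signal is, judged from its name and values, the authors' reads of each gene per 1000000 TMM-scaled library reads. Every value (100%) was a whole number of reads within 0.01, and these recovered reads served for counts. The submitters' processing notes name STAR 2.7.2a, HTSeq 0.6.1, edgeR, DESeq2 and GRCh38, without roles, although the identifiers are mouse, and no source used here gives the mouse build. Coordinates are those of GENCODE M21 (GRCm38), which holds 55394 of the 55573 identifiers.

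A limma 3.58.1 trend fit (R 4.3.3) on log2(RPM + 1), with 1 mean for each group, took the 13516 genes reaching 1 RPM in 3 libraries. P-values are two-sided and adjusted by Benjamini and Hochberg over all genes of a contrast. Named genes are the 10, up to 3 called genes of a list in each direction and contrast with a mean of at least 5 RPM in the higher group (a selection of these is given), the 2 nearest genes of each of the 10, Hoxb13 and Rest, of which a few are not reported here. Dock1, Dcx, Gabbr1, Gabbr2, the other markers and values outside that rule were picked after they were seen. Counting intervals are exact (95%) and cover counting error only. The 10 genes and the lists were chosen with earlier results of these data known. As an alternative, edgeR 4.0.16 on recovered reads called 1403 genes higher and 1150 lower in HOXB13 at day 1, where limma called 973 and 819. DESeq2 1.42.0, other pseudocounts, filters and scalings, blocking on replicate number, separate fits and leaving out each library were also tried. The fit was tested on simulated data.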

Additional observations from a re-analysis of the deposited data

Results flagged for a closer look

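For 6 of the 10 genes a difference pointed in opposite directions on the 2 days or in the 2 cultures, with all libraries on their group's side. The contrast of the 2 differences was not tested, because the same HOXB13 libraries had selected the genes. On the scale of log2(RPM + 1), the difference between HOXB13 and vector at day 21 minus that at day 1 was -5.31 for Rab3b and -3.01 for Ptn, both higher in HOXB13 at day 1 and lower at day 21. It was 2.43 for Lgi2, which was lower in HOXB13 at day 1 and higher at day 21. For Stmn2 it was -3.40, with higher levels at day 21 in vector and lower ones in HOXB13, and for L1cam 3.22, with lower levels at day 21 in vector and higher ones in HOXB13. For Nptx1 it was -4.86, but its day 21 levels rest on 7 reads in vector and 4 in HOXB13, and no difference between the cultures was detectable on that day.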

How the results depend on the processing

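No value of the 10 genes that was at least 2-fold changed direction under any alternative run. Of 230 recomputed values for the change with time in vector cells, 222 kept their call. With a pseudocount of 4, 1 of the 10 genes was called higher and 3 lower in vector cells with time. Nptx1 was called with a pseudocount of 0.25, edgeR or DESeq2, and L1cam with edgeR or DESeq2. Among the other neuronal genes, a pseudocount of 4 gave 8 higher in HOXB13 at day 1, 8 higher at day 21, 5 rising in vector, 17 falling in HOXB13 and 11 negative interactions. A pseudocount of 0.25 gave 21 higher at day 21, edgeR 24 and DESeq2 23, and a filter of 5 RPM gave 9 higher at day 1. With no fold limit 37 were higher and 26 lower at day 1, 30 higher at day 21, 21 rose and 35 fell in vector, 47 fell in HOXB13, and 27 interactions were positive and 34 negative. In the main fit every gene with at least a 2-fold change also had an adjusted p below 0.05, so the fold limit decided the calls. A replicate block therefore left the calls over all genes at 1792 for HOXB13 against vector at day 1, and changed no other count. Equal replicate numbers did not mark pairs, since deviations of equal-numbered libraries correlated between -0.111 and 0.118 over 9077 genes. A fit on only the libraries of a comparison was not run for the interaction, which needs all of them. Genes below 1 RPM, such as Nptx1 and Insyn2a in vector cells, are limited by few reads.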
